A study of Mus musculus with 5 samples.

Results

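The 9 genes described here encode receptors through which blood-forming cells answer to myeloid and erythroid growth factors. They are Csf2rb, Csf2rb2, Csf2ra, Il3ra, Csf1r, Csf3r, Epor, Il6ra and Il6st, and they were taken as every probe set whose platform annotation gives 1 of these symbols and no other. This found 17 probe sets of 9 genes, among 45037 probe sets tested and 18193 genes with at least 1 probe set of their own. Affymetrix mouse arrays gave RNA levels of KLS cells, the c-Kit+, lineage-negative, Sca-1+ fraction of mouse blood-forming cells that holds stem cells and multipotent progenitors. The Rb family deficient group, with 3 arrays, had the genotype Rb -/-, p130 -/- and p107-/-, by its label a deletion of all 3 members of the pocket protein family, which binds E2F factors and restrains entry into the cell cycle. The group titled wild type, with 2 arrays, was Rb +/+ and p130 +/+ but p107+/-, so it carried 1 intact copy of the p107 gene. For both groups the labels state that recombination of floxed alleles was activated in mice 6 weeks old with Mx1Cre, a recombinase driven by an interferon-responsive promoter that is not specific to stem cells, and that cells were sorted 2 months later. The labels do not say whether an array held 1 animal or a pool, and the p-values therefore rest on the spread among these arrays alone, which may be technical. Of the targeted genes, Rbl1, which encodes p107, read 5.15, 4.25 and 4.73 (log2 intensity, brightest probe set) in deficient arrays, against 8.33 and 7.16 in wild type arrays. Rb1 read 8.93, 7.77 and 8.46 in deficient arrays, against 8.84 and 8.65 in wild type arrays, and Rbl2, which encodes p130, read 7.90, 7.55 and 8.07 in deficient arrays, against 8.62 and 7.997 in wild type arrays. Only Rbl1 separated the groups. Rb1 and Rbl2 overlapped and lay above the array median on all 5 arrays, so the brightest probe set of each does not show the labelled deletion. Any other probe sets of these genes were not read here. Whether the probes lie in the deleted parts is not given in the sources used here.

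Receptors for GM-CSF, interleukin 3 (IL-3) and interleukin 5 (IL-5) pair a ligand-specific alpha chain with a signalling beta chain. Csf2rb encodes the beta chain common to all 3 ligands. In the mouse Csf2rb2 encodes a close relative of it that serves IL-3 alone. Csf2ra and Il3ra encode the alpha chains for GM-CSF and IL-3. The interleukin 6 (IL-6) receptor follows the same plan, with Il6ra binding the ligand and Il6st encoding gp130, the signalling chain used by the whole IL-6 family. Csf3r (G-CSF receptor) and Epor (erythropoietin receptor) act as homodimers. All of these chains lack a kinase domain, and the receptors they form signal through JAK kinases and STAT factors. Csf1r, the M-CSF receptor, is a receptor tyrosine kinase. Csf3r, Csf1r and Epor are best known for the granulocyte, monocyte and red cell paths, while gp130 is broadly expressed.

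In sorted KLS cells the gene that passed the test was the common beta chain Csf2rb. Both Csf2rb probe sets rose in Rb family deficient arrays, 3.22-fold and 2.80-fold, and the single Csf2rb2 probe set was 4.55-fold higher without passing. The alpha chain genes Csf2ra and Il3ra differed by -0.23 to 0.29 on the log2 scale and did not pass. All 3 Csf1r probe sets were lower in deficient arrays, by 0.40 to 0.77 on the log2 scale, and none of them passed. Of the 17 member probe sets, 2 passed as higher and 0 as lower (limma, adjusted p under 0.05 over all probe sets). Over all probe sets tested, 0.491% passed, 0.164% as higher and 0.326% as lower. At an unadjusted p under 0.05, 3 member probe sets were higher and 3 lower, where 14.1% of all probe sets passed in either direction. The median difference was -0.02 over the member probe sets and 0.00266 over all probe sets, and 11 of the 17 had groups of arrays that did not overlap (5 higher and 6 lower), against 30.5% of all probe sets. In bulk RNA of this kind, fewer cells of a type and less RNA per cell cannot be told apart.

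**Figure D1:**
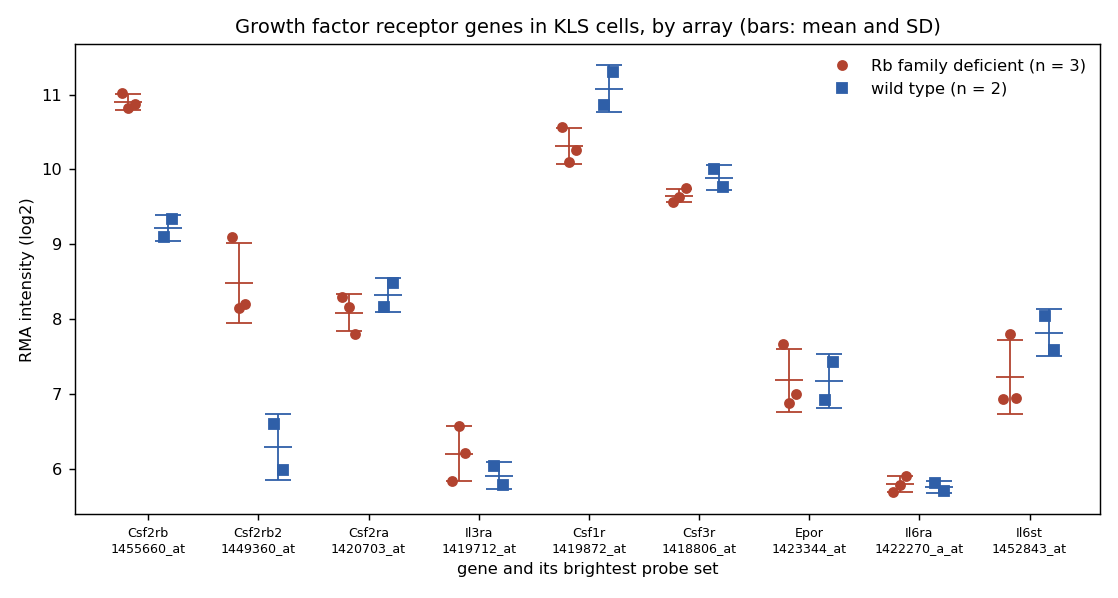
RMA intensity on the log2 scale (vertical axis) of the brightest probe set of each receptor gene, with a point for each array and bars for the mean and SD of 3 Rb family deficient arrays (circles, left) and 2 wild type arrays (squares, right). For Csf2rb the deficient arrays sit between 10.82 and 11.02 and the wild type arrays at 9.09 and 9.34, while for Epor and Il6ra the groups overlap. Heights of different genes are from different probes and are not comparable.

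RefSeq promoter sequences (GRCm38.p6) were used for 7 of the 9 genes, all but Csf2rb and Csf1r. For Csf2rb the sources used here held no promoter. Csf1r was left out by choice, so the motif counts do not cover it. Shown are the IL-3 beta chain Csf2rb2, which had the largest difference, its alpha chain partner Il3ra, and Csf2ra, the alpha chain that pairs with Csf2rb. The 250 bases before the start of Csf2rb2 (chr15:78305722-78305971, minus strand), Csf2ra (chr19:61228419-61228668, minus strand) and Il3ra (chr14:14346245-14346494, plus strand) are shown 5′ to 3′. Capitals mark matches, on either strand, to 4 motifs. The PU.1 core, for a myeloid transcription factor, is GAGGAA. The motif for GATA factors is AGATAA. The motif for E2F factors is GCGGGAA. The motif for STAT factors is TTCNNNGAA.
Csf2rb2: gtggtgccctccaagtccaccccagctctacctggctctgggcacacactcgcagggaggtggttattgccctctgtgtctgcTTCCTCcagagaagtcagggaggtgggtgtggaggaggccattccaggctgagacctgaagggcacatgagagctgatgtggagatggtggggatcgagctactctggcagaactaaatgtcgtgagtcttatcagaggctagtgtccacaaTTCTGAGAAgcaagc
Csf2ra: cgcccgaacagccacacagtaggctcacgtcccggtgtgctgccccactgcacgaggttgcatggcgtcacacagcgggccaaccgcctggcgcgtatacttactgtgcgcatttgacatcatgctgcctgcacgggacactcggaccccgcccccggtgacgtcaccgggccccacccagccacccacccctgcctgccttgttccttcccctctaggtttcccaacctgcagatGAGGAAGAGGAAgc
Il3ra: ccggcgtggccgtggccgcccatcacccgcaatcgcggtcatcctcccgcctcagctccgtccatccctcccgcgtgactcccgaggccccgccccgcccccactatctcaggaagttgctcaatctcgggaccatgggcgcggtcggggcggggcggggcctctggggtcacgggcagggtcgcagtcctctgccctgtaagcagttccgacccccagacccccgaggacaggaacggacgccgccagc

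The Csf2rb2 sequence holds the PU.1 core on the reverse strand, 167 to 162 bases before the start, and the STAT motif 15 to 7 bases before it. The Csf2ra sequence holds the PU.1 core on the forward strand in 2 adjoining copies that do not overlap, 14 to 9 and 8 to 3 bases before the start. None of the 4 motifs was found in the Il3ra window, nor in that of Il6st. Among the other members, the PU.1 core was found once in Csf3r and once in Il6ra, and the GATA motif once each in Epor and Il6ra. In all, 4 of the 7 windows hold the PU.1 core, 2 the GATA motif, 1 the STAT motif and 0 the E2F motif. Over 32851 RefSeq promoters of the same length, 23.3% hold the PU.1 core, 9.99% the GATA motif, 3.82% the E2F motif and 7.02% the STAT motif. With Csf1r left out by choice, the 7 windows were not chosen in the same way as this background, and no difference from it was tested. A match describes the letters only. Csf2rb and Csf2rb2 lie beside each other on chromosome 15, with only the microRNA gene Mir7676-1 listed between them in RefSeq.

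Csf2rb, the common beta chain, was measured by probe sets 1455660_at and 1421326_at. On 1455660_at it read 11.02, 10.82 and 10.87 (log2 intensity) in deficient arrays 1, 2 and 3, against 9.09 and 9.34 in wild type arrays 1 and 2. Every deficient array lay above both wild type arrays, and the gap was several times the spread within either group. The means were 10.90 ± 0.10 (SD, n = 3) in deficient and 9.22 ± 0.17 (SD, n = 2) in wild type cells, and the difference was 1.69 (SE 0.13, limma adjusted p = 0.0155). The fold was 3.22, with a 95% interval of 2.59 to 4.004. On 1421326_at it read 7.41, 7.49 and 7.15 in deficient arrays, against 5.94 and 5.79 in wild type arrays. Again the groups did not overlap, and the difference was 1.49 (SE 0.14, limma adjusted p = 0.0258). The call needs all 5 arrays: with any 1 of them left out, the difference on 1455660_at lay between 1.57 and 1.81 and the adjusted p between 0.0523 and 0.0687. On 1421326_at the same fits gave 1.41 to 1.58, with adjusted p between 0.0582 and 0.103.

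Csf2rb2, the beta chain used by IL-3 alone in the mouse, has the single probe set 1449360_at. It read 9.09, 8.15 and 8.20 in deficient arrays, against 6.60 and 5.98 in wild type arrays. The groups did not overlap, and deficient 1 stood above the other deficient arrays. Means were 8.48 ± 0.53 (SD, n = 3) in deficient and 6.29 ± 0.44 (SD, n = 2) in wild type cells. The difference of 2.19 (SE 0.34) was the largest of the 17, with a fold of 4.55 and a 95% interval of 2.56 to 8.11. In the fit over all probe sets it did not pass (limma adjusted p = 0.0671). It passed with 1 probe set per gene (limma adjusted p = 0.0379), a fit that called 2.24% of genes, 0.830% as higher and 1.41% as lower. Without deficient 1 the difference was 1.88, and without wild type 2 it was likewise 1.88. Without wild type 1 it was 2.50, when wild type 2 stood alone.

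Csf2rb and Csf2rb2 are close in sequence, and probe set 1450200_s_at is annotated to both of them, so it belongs to neither gene under the rule. It read 6.10, 6.16 and 6.32 in deficient arrays, against 5.92 and 5.87 in wild type arrays. These groups did not overlap either, but the difference of 0.30 (SE 0.11, limma adjusted p = 0.319) was smaller than on the gene-specific probe sets and did not pass. Its 95% interval, 0.02 to 0.58, lies below those of the 3 gene-specific probe sets, the lowest of which begins at 1.14. Whether the gene-specific probes also bind the other gene was not tested.

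**Figure D2:**
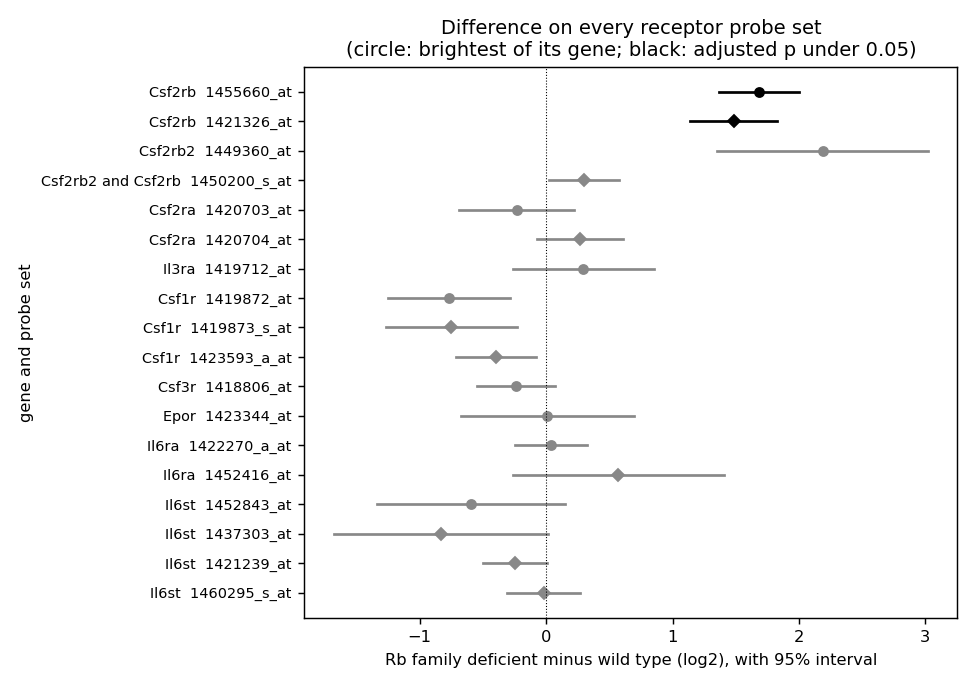
Difference between Rb family deficient and wild type arrays on the log2 scale (horizontal axis) for the 17 receptor probe sets and the probe set annotated to both beta chain genes, with 95% intervals from limma. Circles are the brightest probe set of a gene, diamonds the others, and black marks an adjusted p under 0.05, which the Csf2rb probe sets at 1.69 and 1.49 reached.

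Csf2ra, the alpha chain that binds GM-CSF, did not pass on either probe set. On 1420703_at it read 8.30, 8.16 and 7.81 in deficient arrays, against 8.16 and 8.48 in wild type arrays, and the groups overlapped. The difference was -0.23 (SE 0.19, 95% interval -0.69 to 0.22, limma adjusted p = 0.681), and with 1 array left out it ranged from -0.39 without wild type 1 to -0.07 without wild type 2. The dimmer 1420704_at read 5.79, 5.52 and 5.46 in deficient arrays, against 5.27 and 5.38 in wild type arrays, so its groups did not overlap and its difference of 0.27 had the other sign (adjusted p = 0.480). Averaged over both probe sets, the Csf2ra difference was 0.017.

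Il3ra, the IL-3 alpha chain, read 5.84, 6.57 and 6.21 in deficient arrays, against 6.04 and 5.78 in wild type arrays (1419712_at). The groups overlapped, and deficient 2 was the highest array. The difference was 0.29 (SE 0.23, 95% interval -0.26 to 0.85, limma adjusted p = 0.667), so a fold of up to 1.80 lies within the interval. It was 0.11 without deficient 2 and 0.48 without deficient 1. Il5ra, the alpha chain that joins Csf2rb in the IL-5 receptor, lay below the array median on every array and differed by -0.17 (adjusted p = 0.650).

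Within each array, the beta chain was then set against its alpha chain, to ask whether the pair kept its balance between the groups. Only the change of this quantity has a meaning, since probe sets differ in brightness. That change equals the beta chain's difference between the groups minus the alpha chain's. It therefore restates the differences of both chains and adds no separate evidence. Csf2rb minus Csf2ra was 2.72, 2.66 and 3.06 in deficient arrays, against 0.93 and 0.86 in wild type arrays. The groups were far apart, with means of 2.81 ± 0.22 (SD, n = 3) and 0.89 ± 0.05 (SD, n = 2). The balance moved by 1.92 on the log2 scale between the groups, and by 1.57 after averaging the probe sets of each gene. Csf2rb minus Il3ra was 5.17, 4.25 and 4.66 in deficient arrays, against 3.05 and 3.55 in wild type arrays, a shift of 1.39. After the same averaging the shift was 1.29. Csf2rb2 minus Il3ra was 3.25, 1.58 and 1.99 in deficient arrays, against 0.56 and 0.20 in wild type arrays, a shift of 1.89. For each of these 3 pairs the deficient arrays lay above both wild type arrays (two-sided exact permutation test, p = 0.1, adjusted p = 0.133 over 4 pairs). That p is the smallest that 10 splits of the arrays allow, so this test cannot reach 0.05 with 5 arrays. The 3 pairs also reuse Csf2rb and Il3ra and are not separate observations.

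**Figure D3:**
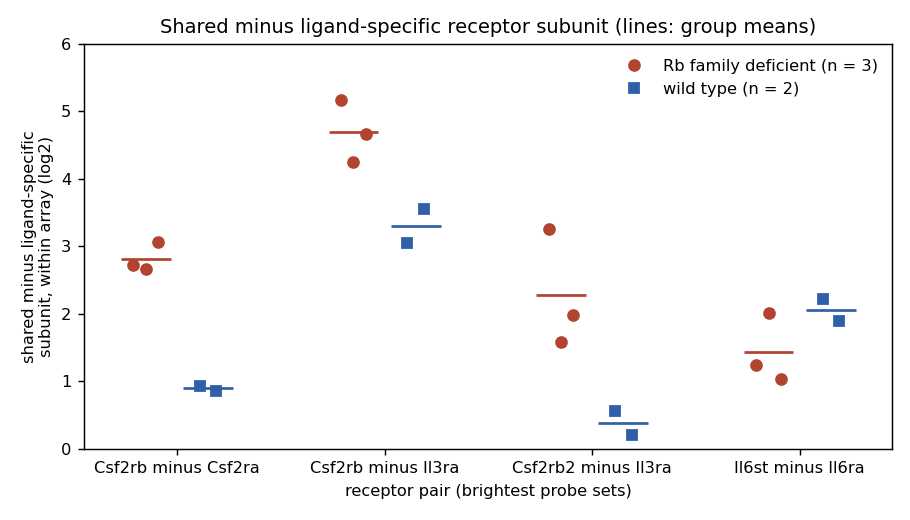
Log2 intensity of the signalling subunit minus that of the ligand-binding subunit within each array (vertical axis, brightest probe sets), for 4 receptor pairs. The axis calls these subunits shared and ligand-specific, but Csf2rb2 serves IL-3 alone and is not shared. Circles are 3 Rb family deficient arrays, squares are 2 wild type arrays and lines are the group means. The GM-CSF and IL-3 receptor pairs separate the groups, as for Csf2rb minus Csf2ra with means of 2.81 and 0.89, and the IL-6 receptor pair overlaps.

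In the IL-6 receptor neither chain passed the test. Il6st, which encodes gp130, read 6.94, 7.80 and 6.94 on its brightest probe set (1452843_at) in deficient arrays, against 8.04 and 7.60 in wild type arrays. Deficient 2 lay between the wild type arrays and the groups overlapped. The difference was -0.59 (SE 0.30, 95% interval -1.33 to 0.15, limma adjusted p = 0.477), and it was -0.88 without deficient 2 and -0.37 without wild type 1. On 1437303_at Il6st read 6.12, 6.12 and 5.73 in deficient arrays, against 7.41 and 6.24 in wild type arrays. Here the groups were apart, but the difference of -0.83 (adjusted p = 0.363) came to -0.25 without wild type 1. The other Il6st probe sets, 1421239_at and 1460295_s_at, lay below the array median on all 5 arrays and differed by -0.24 and -0.02.

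Il6ra, the chain that binds IL-6, read 5.70, 5.78 and 5.91 on 1422270_a_at in deficient arrays, against 5.81 and 5.70 in wild type arrays. The groups overlapped, and the difference of 0.04 had a 95% interval of -0.25 to 0.32 (limma adjusted p = 0.935). The other Il6ra probe set, 1452416_at, read 5.55, 6.55 and 5.44 in deficient arrays, against 5.19 and 5.35 in wild type arrays. Its difference was 0.57 (adjusted p = 0.551) with deficient 2 far above the rest, and 0.22 without that array. Il6st minus Il6ra was 1.24, 2.02 and 1.03 in deficient arrays, against 2.23 and 1.89 in wild type arrays, a shift of -0.63 (two-sided exact permutation test, p = 0.3, adjusted p = 0.3). After averaging the probe sets of each gene the shift was -0.73, with p = 0.1 in the same exact test, the smallest it allows.

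Deficient 2, the array on which Il3ra and both the brightest Il6st and the variable Il6ra probe set were highest of the deficient arrays, also stood apart in sex-linked genes. Xist, transcribed from the inactive X chromosome, read 12.45 on deficient 2 and 5.09 and 5.51 on deficient 1 and 3, against 6.12 and 10.67 on wild type 1 and 2. The Y-linked gene Eif2s3y read 3.50 on deficient 2 and between 9.81 and 10.37 on the other arrays of both groups. Wild type 2 was thus high for both genes. The part of sex in these values was not tested.

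Csf1r, the M-CSF receptor of monocytes and macrophages, was the member with the most uniform lower values. On 1419872_at it read 10.57, 10.10 and 10.26 in deficient arrays, against 10.86 and 11.30 in wild type arrays. Every deficient array lay below both wild type arrays on this and on the other Csf1r probe sets, 1419873_s_at and 1423593_a_at. The differences were -0.77 (SE 0.20, limma adjusted p = 0.167), -0.75 (SE 0.21, adjusted p = 0.191) and -0.40 (SE 0.13, adjusted p = 0.244). None passed, although each unadjusted p lay under 0.05, between 0.00828 and 0.0214, and 95% intervals excluded 0. With 1 array left out, the difference on 1419872_at lay between -0.99 and -0.55. Probe sets of 1 gene on the same arrays are not independent measurements of the condition.

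Csf3r, the G-CSF receptor that drives neutrophil production, read 9.57, 9.63 and 9.75 in deficient arrays, against 10.01 and 9.77 in wild type arrays (1418806_at). The deficient arrays were all lower, deficient 3 only just. The difference was -0.24 (SE 0.13, 95% interval -0.55 to 0.07, limma adjusted p = 0.485), and it was -0.12 without wild type 1 and -0.36 without wild type 2. Epor read 7.66, 6.88 and 7.004 in deficient arrays, against 6.92 and 7.43 in wild type arrays (1423344_at). These groups overlapped almost fully, with a difference of 0.00774 (95% interval -0.68 to 0.69, adjusted p = 0.995), and folds from 0.626 to 1.62 lie within the interval.

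Markers of cell types that carry these receptors were read on the same arrays. Over all 18193 genes, on the brightest probe set, 9446 had lower and 8747 higher means in deficient arrays. Of these genes, 111 passed as lower and 41 as higher. The groups did not overlap for 3381 genes that were lower and 2996 that were higher. Of the genes behind the sort, Kit was measured and Ly6a, which encodes Sca-1, was not analysed here. Of Kit and 4 other stem and progenitor genes, Kit, Cd34, Flt3 and Slamf1 differed by -0.33 to 0.06 on the log2 scale, Procr by -1.62 (limma adjusted p = 0.0560), and all 5 lay above the array median on every array. Neutrophil genes, which mark the main cells that use Csf3r, were lower for 10 of 11 measured, and 8 fell past the threshold. Their summed level lay between 10.52 and 11.49 (log2) in deficient arrays, against 15.72 to 16.03 in wild type arrays, and none was below the array median throughout. Monocyte and macrophage markers, beside which Csf1r is read, were lower for 4 of 9 and 0 passed, with a summed level of 9.92 to 10.76 in deficient arrays, against 9.59 to 10.10 in wild type arrays. Of them, Cx3cr1, Mrc1 and C1qb lay below the array median on every array. Ccr2, a monocyte chemokine receptor, was the brightest of them on each deficient array and had the highest difference, 1.00 (limma adjusted p = 0.214). The macrophage genes Adgre1 and C1qa, with differences of -0.48 (adjusted p = 0.279) and -0.59 (adjusted p = 0.147), were lower without overlap, as Csf1r was. C1qa lay below the array median on every deficient array. The part of these cell types in the Csf1r and Csf3r values was not tested.

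Granulocyte-monocyte progenitor genes had higher means for 7 of 7 measured, with 0 past the threshold in the fit over all probe sets. With 1 probe set per gene, Ctsg (limma adjusted p = 0.0385), Ms4a3 (0.0385), Gfi1 (0.0357) and Cebpa (0.0439) passed, and Mpo, Elane and Prtn3 did not. The summed level of all 7 was 15.94 to 16.09 in deficient arrays, against 15.26 to 15.53 in wild type arrays. Mast cell, basophil and eosinophil markers, from cells that answer to IL-3 and IL-5, were higher for 6 of 8 with 0 past the threshold, and summed to 11.38 to 12.25 in deficient arrays, against 10.28 to 11.004 in wild type arrays. The high-affinity IgE receptor chain Fcer1a read 10.20, 9.35 and 8.14 in deficient arrays, against 6.45 and 7.53 in wild type arrays, while the eosinophil peroxidase gene Epx lay below the array median throughout. Prg2, which encodes eosinophil major basic protein, had the smallest p of the list and went the other way, with 3.77, 3.94 and 3.86 in deficient arrays, against 6.21 and 5.32 in wild type arrays (difference -1.91, limma adjusted p = 0.0550). Both summed levels were higher in deficient arrays, as Csf2rb and Csf2rb2 were, and their part in those values was not tested. For Epor, all 7 measured erythroid markers had lower means and 0 passed, and Slc4a1, Alas2 and Epb42 lay below the array median throughout. Their summed level spread from 9.23 to 12.585 in deficient arrays, against 11.68 to 12.24 in wild type arrays. The red cell carbonic anhydrase Car1 read 11.88, 6.31 and 9.07 in deficient arrays, against 11.09 and 11.45 in wild type arrays. Deficient 1 was thus highest of its group for both Car1 and Epor and deficient 2 lowest. Klf1, Ermap and Rhd had the same order among deficient arrays, while the dim Slc4a1, Alas2 and Epb42 did not. The part of red cell precursors in the Epor values was not tested.

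The pathway around the receptors was read from 7 lists, whose counts stand beside the same counts over all genes given with the markers. Of 11 ligand genes measured, 0 passed, the differences on the brightest probe sets lay between -0.14 and 0.26, and 6 of the genes, among them Csf2 and Il3, were below the array median on every array. The smallest p-values belonged to Csf3, with 0.26 (limma adjusted p = 0.356), and, on a dim probe set, the Kit ligand gene Kitl, with -0.25 (adjusted p = 0.536). Of 23 other cytokine and growth factor receptor genes measured, 0 rose, 1 fell and 22 did not pass (median -0.19, against -0.01 over all genes). The gene that fell was Il7r, the interleukin 7 receptor of lymphoid progenitors, with 4.50, 5.20 and 4.58 in deficient arrays, against 8.57 and 8.35 in wild type arrays (difference -3.71, adjusted p = 0.0101). Beside it, B and plasma cell markers were lower for 9 of 9 measured and 2 fell, Jchain and Igha, with a summed level of 9.29 to 9.61 in deficient arrays, against 13.75 to 14.01 in wild type arrays. Pax5 and Ebf1 lay below the array median on every array, and the part of these cells in the Il7r value was not tested.

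Downstream of the receptors, 0 of 10 JAK and STAT genes passed (median -0.10). Stat4, which acts in lymphoid cells, differed by -0.83 (limma adjusted p = 0.134), and Stat5a, the main STAT of IL-3 and GM-CSF signalling together with Stat5b, by 0.39 (adjusted p = 0.278). Jak2, the kinase that Csf2rb and Epor bind, differed by -0.06. Of 10 adaptor and kinase genes, 0 passed (median 0.16), with the smallest p-values for Syk, a tyrosine kinase (0.61, adjusted p = 0.0973), and the scaffold gene Gab2 (1.30, adjusted p = 0.113).

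Among 15 inhibitor genes, 1 rose and 14 did not pass. Socs7 rose on 1434834_at, with 8.29, 8.41 and 8.41 in deficient arrays, against 7.26 and 7.24 in wild type arrays (difference 1.12, SE 0.10, limma adjusted p = 0.0240). Its brighter probe set 1455402_at differed by 1.06 (adjusted p = 0.0929). A pair of feedback inhibitors that STAT5 induces had lower values: Cish read 8.08, 7.97 and 8.71 in deficient arrays, against 10.87 and 9.76 in wild type arrays, and Socs2 read 6.54, 6.09 and 6.37 in deficient arrays, against 7.72 and 7.27 in wild type arrays. Neither pair of groups overlapped, and neither difference passed over all probe sets (-2.06, adjusted p = 0.0901, and -1.17, adjusted p = 0.0776). With 1 probe set per gene, Socs2 passed (limma adjusted p = 0.0452) and Cish did not (0.0541). Cish and Socs2 also had the smallest p-values among 14 STAT5 and STAT3 response genes, of which 0 passed (median -0.08).

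Of 11 transcription factor genes known to act at these receptor genes, 0 passed in the fit over all probe sets (median 0.03). Gfi1, a transcriptional repressor that acts within the granulocyte path, differed by 0.91 (limma adjusted p = 0.0615). Irf8, which drives monocyte fate, differed by -1.31 on 1448452_at (adjusted p = 0.0634) and by -1.21 on its brighter probe set 1416714_at (adjusted p = 0.0966). Cebpa, which drives granulocyte-monocyte fate, differed by 1.16 (adjusted p = 0.0743). Spi1, which encodes PU.1, differed by -0.10 (adjusted p = 0.775).

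**Figure D4:**
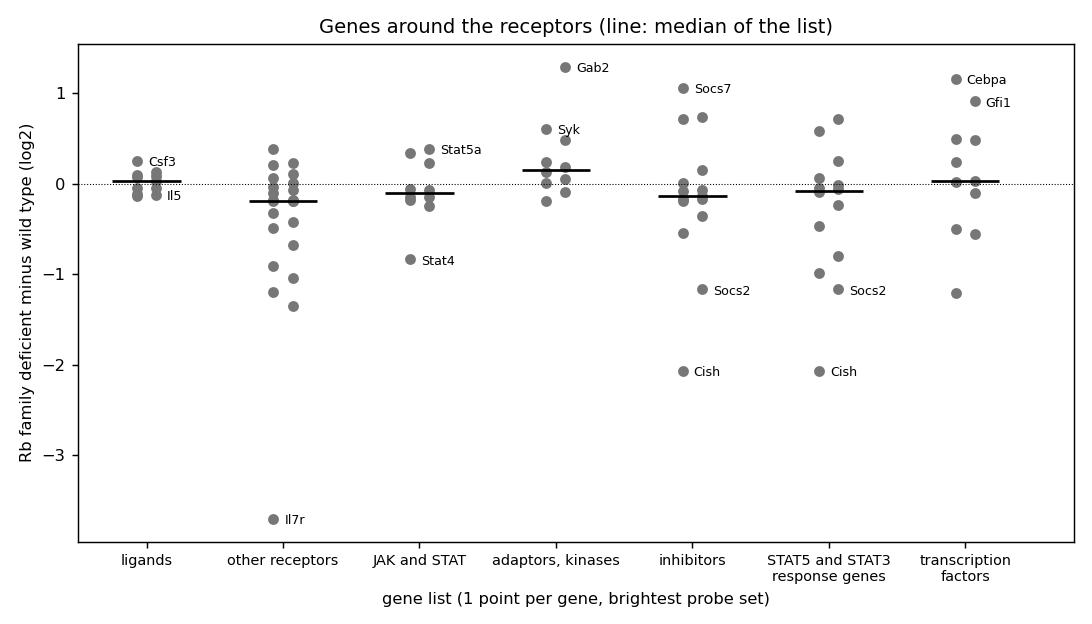
Difference between Rb family deficient and wild type arrays on the log2 scale (vertical axis) for the brightest probe set of each gene in 7 lists around the receptors, with a line at the median of each list. List medians lie between -0.19 and 0.16, and single genes such as Il7r at -3.71 and Cish at -2.06 lie far from them.

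Genes with the most similar course over the 5 arrays were found for the 4 members whose brightest probe set spanned at least 1 log2 unit, by the root mean square difference of values centred on each gene's own mean. For Csf2rb these were Mcf2l, Gse1 and Spen, at 0.12, 0.13 and 0.13 log2 units, with differences of 1.56, 1.54 and 1.45 that each passed the threshold. For Csf2rb2 they were Zbtb16, Kmt2d and Dmkn, at 0.38, 0.42 and 0.42. The nearest member to Csf2rb was Csf2rb2, and the reverse, at 0.46. For Csf1r the nearest genes were Vsir, Glcci1 and 2810039B14Rik, at 0.07 to 0.08, and for Il6st they were Mcoln2, Cabcoco1 and Antxr2, at 0.07 each. With 5 arrays in 2 groups, a small value mostly records a like difference between the groups.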

How the data were processed

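Total RNA of sorted KLS cells was labelled with biotin and hybridised to Affymetrix arrays, per the labels' protocols. The authors made the deposited intensity values with RMA, which sets arrays to a common distribution and compresses differences of dim probe sets, per the submitters' processing notes. The RMA program is not given in the sources used here. Of 6 arrays the study left out 1 for high background. Linear values were taken to log2 here. Array medians lay between 26.1 and 26.7. The 18S RNA control (log2) read 10.93, 10.78 and 10.94 in deficient arrays, against 11.52 and 11.50 in wild type arrays. The 3′ minus 5′ difference of the beta-actin control was 3.40, 3.53 and 3.34, against 3.16 and 3.12. For the Gapdh control it was 4.67, 4.45 and 4.87, against 4.57 and 4.71, and the groups overlapped. The 18S and beta-actin controls separated the groups, and their part in the differences was not tested. The number of arrays limits the precision.

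Groups came from the titles. GEO's platform annotation gave 34945 probe sets 1 symbol. Differences are Rb family deficient minus wild type, from limma 3.58.1 under R 4.3.3 (two-sided moderated tests by lmFit and eBayes, without covariates) over 45037 probe sets, leaving out 64 AFFX controls, with Benjamini-Hochberg adjustment and a threshold of 0.05. In simulated data for this comparison (45037 probe sets), the same fit called 26% of 50 probe sets shifted by 1 on the log2 scale. It called 92% of 100 shifted by 2 and 100% of 50 shifted by 4, with 7 false among 162 calls. The simulated noise was normal and independent between probe sets, with variances drawn from the distribution that limma fitted to these data. These rates hold under those assumptions and are not the error rates of the real arrays. Receptor pairs were compared by exact permutation over 10 splits.

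The members, lists and motifs were chosen with earlier results of these data known. The text names every probe set of the members, and for each list around the receptors the genes past the threshold or, with none, the 2 with the smallest p. Fcer1a, Car1, Il5ra, Jak2, Cebpa, Spi1 and the marker genes fall outside this rule and were picked with their values seen.

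Alternatives were other normalizations, filters on probe sets, an intensity trend, another threshold, other ways to join probe sets, the replicate number as a block and each array left out.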

Additional observations from a re-analysis of the deposited data

How the results depend on the processing

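Over all probe sets, 74 were called higher and 147 lower. The counts were 141 and 260 with an intensity trend in eBayes, 451 and 497 at an adjusted p under 0.1, 151 and 257 with 1 probe set per gene, and 129 and 259 after averaging the probe sets of each gene. With 1 array left out they ranged from 2 to 5 higher and from 21 to 73 lower; where 1 wild type array remained, it was assumed to vary like the others. The 2 Csf2rb probe sets gave 2 member calls, and this count was 0 with any array left out (Csf2rb difference 1.57 to 1.81) and 0 with the replicate block. With that block, 0 probe sets were higher and 15 lower in all, and Csf2rb differed by 1.70 (limma adjusted p = 0.150). The labels do not state that equal replicate numbers pair the arrays. Deviations from the group means correlated at -0.05 between the arrays numbered 1 and at -0.02 between those numbered 2. With 2 wild type arrays, whose deviations mirror each other, these values cannot decide whether the arrays were paired.

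Csf2rb2 passed under the intensity trend (limma adjusted p = 0.0388), at a threshold of 0.1, with 1 probe set per gene (0.0379) and with the mean of probe sets (0.0351). It did not pass in the other 11 of 15 alternatives. Among these were the replicate block (limma adjusted p = 0.108) and the fits without 1 deficient array (0.115 to 0.148). In the lists described here, the fit with 1 probe set per gene also passed genes not called over all probe sets. Of these, Ctsg, Ms4a3, Gfi1 and Cebpa were higher, and Chil3, Mmp8, Igll1, Procr, Prg2, Il21r and Socs2 were lower. Socs7 did not pass in that fit. Signs turned for Epor, Il6ra, Csf2ra and 1 Il6st probe set. Epor was at -0.024 with cyclic loess, -0.23 without deficient 1 and -0.25 without wild type 1, and ranged from -0.25 to 0.27 with 1 array left out. Il6ra was at -0.018 with the replicate block, -0.018 without deficient 3 and -0.017 without wild type 2, in a range of -0.018 to 0.094. Csf2ra was at 0.017 with the mean of its probe sets. The dim Il6st probe set 1460295_s_at was at 0.022 without deficient 1 and 0.046 without wild type 2, in a range of -0.084 to 0.046. Of 135 values of the 9 genes under 15 alternatives, 118 kept their direction and their side of the threshold, and the cause of the other changes was not tested. The 4 receptor pairs kept their direction under the 9 alternatives run for them, and the IL-6 pair separated the groups (-0.73) when probe sets were averaged. Signals near the array median limit Il3ra and Il6ra, where RMA compresses differences.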
